A study of Oryza sativa with 6 samples.

Results

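The bZIP transcription factors of rice were examined in shoots of wild-type seedlings and of the dst mutant. Members were all probe sets whose single gene carries a bZIP number or the name TRAB1 in the array annotation or in the RefSeq gene table, with no condition on signal. The names belong to 20 genes, of which 19 are read by 20 of the 57194 rice probe sets, and OsbZIP19 has no probe set of its own in that annotation. The probe set with the highest mean over the 6 arrays stood for each gene. The rice bZIP family is larger than these 20 genes, since many of its members carry no such name in the table used.

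The wild type was the japonica cultivar Zhonghua 11 and the mutant is labelled as the dst line of Oryza sativa, with no cultivar named. DST is known as a zinc finger protein that acts on stomatal opening and on drought and salt tolerance. Both lines were 25 days old, were kept in cycles of 11 h light (26 °C) and 13 h darkness (22 °C), and had no stated stress treatment. Total RNA of 3 biological replicates of each line was read on 1 Affymetrix rice array each, and precision is limited by the small number of arrays.

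bZIP proteins bind DNA through a basic region and form dimers through a leucine zipper, and many plant members bind sites with an ACGT core. Their roles in rice differ by subgroup. ABF-type members carry the response to abscisic acid, TGA-type members work with NPR1-like proteins in salicylic acid and defence responses, and another set carries stress signals from the endoplasmic reticulum (ER) to the nucleus. Many of these proteins are known to be controlled after transcription, by phosphorylation, by release from a membrane or by splicing of the mRNA, which the level of a transcript does not show.

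None of the 15 bZIP genes tested passed an adjusted p of 0.05 in limma, where 0.987% of all 16013 tested genes passed. The largest differences were those of OsbZIP50, at 0.42 ± 0.20 (SE) on the log2 scale, dst minus wild type, and of OsbZIP52, at -0.40 ± 0.15. At an unadjusted p under 0.05 the count was 1 of 15, OsbZIP52, beside 12.6% of all tested genes. The 95% interval of every one of the 15 lay within a 2-fold change in either direction, as did that of 83.6% of all tested genes. Of the 15, 8 had an interval within 1.5-fold, and the other 7 leave room for a larger change. For comparison, the smallest change among the genes that passed was 1.48-fold. Shoots hold many cell types, and in such bulk samples fewer cells of a type and less RNA per cell cannot be told apart.

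The arrays had median rice signals of 117.6 to 140.9 and a common trimmed mean of 500.1. In the shoot marker list, 12 of 13 genes lay above the filter on dim signals, and the summed signal of the list spanned 138408 to 169817 on wild-type arrays and 141044 to 164706 on dst arrays. Of 12 seed endosperm markers 5 lay above it, with sums of 2983 to 3166 and 2509 to 3097. Of 4 root markers 3 did, with sums of 5149 to 7434 and 4178 to 7750, and of 7 pollen and anther markers 4 did, with sums of 981.2 to 1111 and 1136 to 1249. In the pollen and anther list the name PSS1 is carried by different genes, both above the filter. Its sums may thus hold a gene that is not such a marker. No marker was listed at 0, and none of the 4 lists held a gene that passed. The log2 ratio of 3' to 5' signal of the brighter GAPDH controls spanned 0.35 to 0.62 on wild-type arrays and 1.01 to 1.36 on dst arrays, while that of actin overlapped, at 1.83 to 2.05 and 1.81 to 2.01. The part of this ratio and of the pollen and anther sums, which also did not overlap, in the differences given here was not tested.

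**Figure D1:**
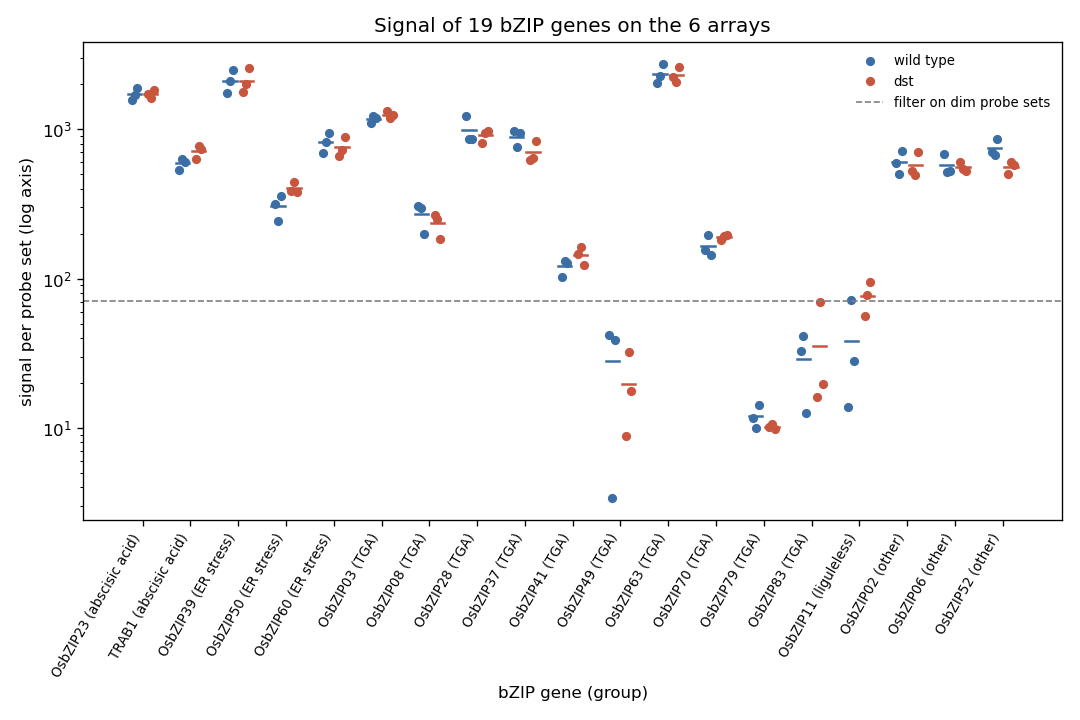
Signal per probe set (log axis) of the 19 bZIP genes in 3 wild-type and 3 dst arrays, with group means as horizontal bars and the filter on dim probe sets, a signal of 70.5, as a dashed line. The points of both lines lie close together in most genes, and 4 genes have a mean under the filter.

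The 2 abscisic acid members were both bright enough to be tested, and neither passed. OsbZIP23 (LOC4330838), also named OsAREB1, activates abscisic acid responses and raises drought and salt tolerance in rice. Its signals were 1577, 1688 and 1894 in the wild type and 1722, 1611 and 1826 in dst. The lines overlapped fully, with group means of 1720 ± 161 and 1719.5 ± 108 (SD, n = 3). The log2 difference was 0.00 ± 0.12 (SE), with a sign that turned with median centring, and its 95% interval covered 0.84-fold to 1.20-fold.

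TRAB1 (LOC4345807) binds abscisic acid response elements and is phosphorylated by SnRK2 kinases in rice. Its signals were 537.8, 630.5 and 603.2 in the wild type and 631.1, 769.1 and 740.7 in dst. All 3 dst arrays lay above the 3 wild-type arrays, although the lowest dst signal and the highest wild-type signal were nearly equal. The log2 difference was 0.27 ± 0.15 (SE), an interval of 0.96-fold to 1.51-fold, and limma gave an adjusted p of 0.576.

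Transcripts of the 3 ER stress members did not shift together. OsbZIP50 (LOC4341554), also named OsbZIP74, encodes a factor whose mRNA is spliced by IRE1 when unfolded proteins build up in the ER. It had signals of 313.7, 245.0 and 355.6 in the wild type and 388.1, 446.8 and 378.1 in dst. Each dst array was above each wild-type array, and the means were 304.8 ± 55.8 and 404.3 ± 37.1 (SD, n = 3). The interval of the difference ran from 0.99-fold to 1.82-fold, and the adjusted p in limma was 0.502. Whether spliced and unspliced forms differ cannot be read from this probe set.

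OsbZIP39 (LOC4338781) and OsbZIP60 (LOC4344086) are membrane-bound bZIP proteins of the ER stress response. OsbZIP39 measured 1738, 2117 and 2489 in the wild type and 1769, 2025 and 2559 in dst. Here the spread among replicates, an SD of 376 and 403, was far larger than the gap between the means of 2115 and 2118. Its log2 difference was 0.00 ± 0.17 (SE), with a sign that turned with median centring and with array weights. OsbZIP60 measured 693.9, 816.9 and 940.3 in the wild type and 660.4, 724.6 and 894.3 in dst. The lines overlapped, and the log2 difference was -0.11 ± 0.17. The gene table lists BZIP60 as a further name of the OsbZIP50 gene too, so that name alone does not tell the genes apart. The OsbZIP39 probe set is of the type whose probes may also match related sequences, and the OsbZIP60 probe set is of the type shared by several transcripts.

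TGA-type members make up 10 of the 19 genes, of which 7 were bright enough to be tested. OsbZIP63, OsbZIP28 and OsbZIP03 are the rice TGA factors TGA2.1, TGA2.2 and TGA2.3, also named OsNIF2, OsNIF1 and OsNIF3 after their interaction with NH1, the rice NPR1-like protein. OsbZIP63 (LOC4344349) measured 2052, 2278 and 2732 in the wild type and 2255, 2059 and 2607 in dst. OsbZIP28 (LOC4332660) measured 1233, 863.2 and 861.9 in the wild type and 815.0, 950.1 and 975.3 in dst. Its wild-type replicate 1 stood above the other 5 arrays, and without it the log2 difference turned from -0.09 to 0.08. OsbZIP03 (LOC4326907) measured 1104, 1228 and 1192 in the wild type and 1324, 1185 and 1255 in dst. It had the smallest SE of the 15 genes, 0.11, and a log2 difference of 0.09. The 3 genes thus overlapped between the lines, with intervals from 0.72-fold at the lowest to 1.28-fold at the highest.

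Among the other TGA-type genes, OsbZIP37 (LOC9270267, TGAL6) had the largest difference. Its signals were 975.0, 756.1 and 948.0 in the wild type and 627.3, 645.6 and 837.6 in dst. The first and second dst arrays lay below all wild-type arrays, while the third lay above wild-type replicate 2. The log2 difference was -0.35 ± 0.17 (SE), and limma gave an adjusted p of 0.512. Its probe set is of the type shared by several transcripts.

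OsbZIP08 (LOC9266109, TGAL1, OsNIF4) measured 308.8, 299.1 and 198.7 in the wild type and 268.1, 250.1 and 184.8 in dst. The third array was the lowest in both lines, and the lines overlapped. The dimmer TGAL genes OsbZIP41 (LOC4338933, TGAL5) and OsbZIP70 (LOC4346610, TGAL7) had signals of 103.3 to 164.0 and of 143.6 to 195.6 over the 6 arrays. Their log2 differences were 0.25 ± 0.30 and 0.22 ± 0.25 (SE), with upper bounds of 1.91-fold and 1.72-fold.

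Under the filter lay 3 further TGA-type genes and OsbZIP11, for which signal over background is not known. OsbZIP79 (LOC4349800, TGAL4), known to act on the synthesis of diterpenoid phytoalexins, measured 11.7, 10.0 and 14.3 in the wild type and 10.1, 10.6 and 9.8 in dst. OsbZIP49 (LOC4341530, TGAL8) measured 3.4 to 42.2 and OsbZIP83 (LOC4351527, TGAL11) 12.6 to 70.0 over the 6 arrays. In these low signals the order of the arrays carries little information. In the fit with no filter their log2 differences were -0.22 ± 0.50, -0.04 ± 1.02 and 0.13 ± 0.79 (SE), and none passed.

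OsbZIP11 (LOC4325063), the rice LG2 gene named after maize liguleless2, which acts at the boundary of leaf blade and sheath, has 2 probe sets. The one with the higher mean measured 13.8, 72.1 and 28.2 in the wild type and 56.6, 77.9 and 95.1 in dst, and the other 19.7, 36.4 and 56.8 against 93.7, 61.6 and 36.3. Both overlapped between the lines and both had a higher mean in dst. The fit with no filter gave log2 differences of 1.30 ± 0.70 and 0.79 ± 0.65 (SE), and the adjusted p in limma was 0.666 and 0.816.

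OsbZIP52 (LOC4341753), also named RISBZ5, lowers cold and drought tolerance in rice when overexpressed. It measured 700.5, 677.5 and 865.0 in the wild type and 502.3, 607.5 and 580.3 in dst. All 3 dst arrays lay below the 3 wild-type arrays, and the means were 748 ± 102 and 563 ± 54.6 (SD, n = 3). The log2 difference was -0.40 ± 0.15 (SE), an interval of 0.59-fold to 0.96-fold, with an unadjusted p of 0.0272. After adjustment over all 34316 tested probe sets p was 0.387 in limma, so the difference did not pass. Across 15 alternative fits its adjusted p was 0.263 to 0.746 and its log2 difference -0.47 to -0.29.

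OsbZIP02 (LOC4325565) and OsbZIP06 (LOC4325139) complete the tested genes. OsbZIP02 measured 594.1, 503.9 and 712.6 in the wild type and 527.3, 492.3 and 704.4 in dst. OsbZIP06 measured 679.6, 515.1 and 528.3 in the wild type and 607.2, 541.4 and 526.1 in dst. The lines overlapped in both genes, with log2 differences of -0.07 ± 0.19 and -0.03 ± 0.16 (SE).

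**Figure D2:**
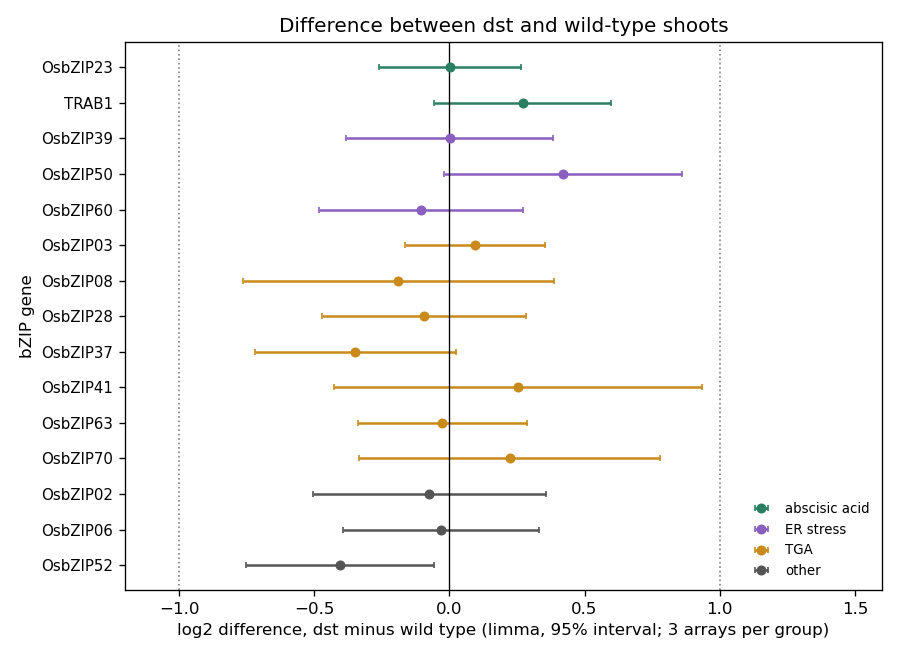
Log2 difference, dst minus wild type, of the 15 tested bZIP genes with 95% intervals from limma (3 arrays per group), coloured by subgroup; dotted lines mark a 2-fold change. OsbZIP52 alone has an interval that leaves out 0 before adjustment, and no interval reaches 2-fold.

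As a set, 7 of the 15 tested genes had a higher mean in dst, beside 54.3% of all tested genes. The median log2 difference was -0.03 in the bZIP genes and 0.02 in all tested genes. The median size of the difference regardless of sign was 0.11 and 0.16. The SE was 0.11 to 0.30 in the bZIP genes, with a median of 0.17, the same as that of all tested genes at this rounding. In 3 of the 15 genes the lines did not overlap, upward in TRAB1 and OsbZIP50 and downward in OsbZIP52, beside 11.3% upward, 7.9% downward and 19.2% in all among the tested genes. The share of the bZIP genes is thus near that of the array as a whole.

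Replicates of a line also differed from one another. The third array was the highest of its line in both lines for OsbZIP23, OsbZIP39, OsbZIP60, OsbZIP63 and OsbZIP02, and the lowest in both for OsbZIP08. These are 5 and 1 of 15, beside 20.8% and 21.5% of all tested genes. With replicates 1 and 2 only, an alternative chosen after seeing the data, the count of bZIP genes that passed was again 0, with 2 of 15 at an unadjusted p under 0.05. What sets the third arrays apart was not tested.

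**Figure D3:**
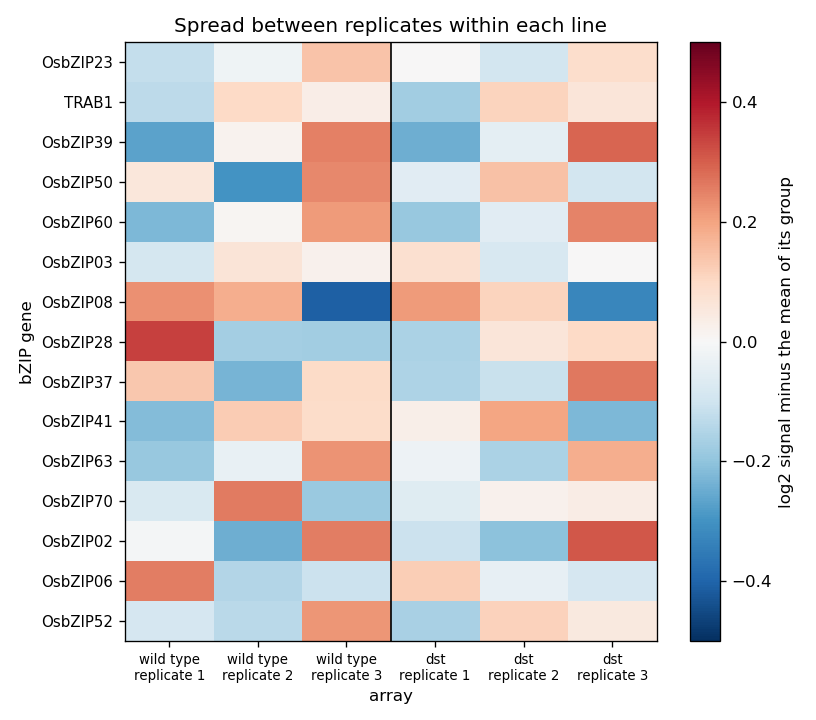
Log2 signal of the 15 tested bZIP genes on each array minus the mean of its line, so that red is above and blue below the line's own mean. The third array is the reddest of its line in both lines for OsbZIP23, OsbZIP39, OsbZIP60, OsbZIP63 and OsbZIP02 and the bluest in both for OsbZIP08.

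Genes of families with members known to act upstream, beside or downstream of bZIP factors were described from lists of gene names. A gene in a list need not itself act with them. The SnRK2 kinases of the SAPK family, some of which phosphorylate TRAB1, had 10 tested genes and none passed. Their log2 differences ran from -0.27 to 0.13, and OsSAPK1 had the smallest p, with a log2 difference of -0.27 ± 0.12 (SE) and 0.447 as its adjusted p in limma. OsPYL11, the only abscisic acid receptor found by name, measured -0.07 ± 0.12. Of 53 tested protein phosphatases 2C, a class with members that hold SnRK2 kinases inactive, OsPP2C01 fell and 52 did not pass, where 0.537% of all tested genes fell. OsPP2C01 had signals of 2626, 2701 and 2257 in the wild type and 1185, 1363 and 1341 in dst. Its log2 difference of -0.96 ± 0.12 passed at an adjusted p of 0.00578 in limma. The name does not tell whether OsPP2C01 acts on SnRK2 kinases. VP1, a seed regulator known to interact with TRAB1, lay under the filter, with signals of 19.6 to 71.0.

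The list of LEA and dehydrin genes, of which several are targets of ABF-type bZIP factors, also takes in salT, which is not a LEA or dehydrin gene. It had 9 tested genes, of which rab25 rose and 8 did not pass, where 0.45% of all tested genes rose. The list takes in rab25 by its own name and was chosen with earlier results of these data known. Its count beside that share is thus no test of the list. The signals of rab25 were 291.7, 427.2 and 475.2 in the wild type and 1036, 1261 and 930.5 in dst, and the adjusted p in limma was 0.0122. RAB21, a dehydrin gene used as a marker of the abscisic acid response, measured 0.35 ± 0.28 (SE) on the log2 scale and overlapped between the lines. The median log2 difference of the list was 0.10.

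In the unfolded-protein response list, which holds ER chaperones, protein disulfide isomerases and the splicing enzyme IRE1, none of 17 tested genes passed. The dst mean was the higher one in 15 of these genes, and the median log2 difference was 0.12, beside 54.3% and 0.02 over all tested genes. With median centring the count was 14 and the median 0.08. OsPDIL5-4, a disulfide isomerase gene, had the smallest p, with signals of 1684, 1647 and 1711 in the wild type and 2227, 2063 and 2300.4 in dst. Its log2 difference was 0.39 ± 0.10 (SE), and limma gave an adjusted p of 0.173. BIP1, of the BiP family of ER chaperones, measured 0.05 ± 0.11 and IRE1 -0.02 ± 0.13. The GAPDH ratio given above was higher in dst on the same arrays.

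NPR1-like genes, whose proteins work with TGA factors, had 6 tested genes and none passed, with differences in both directions. At an unadjusted p under 0.05 in limma the count was 3 of 6, namely NH3, NH4 and NH5, beside 12.6% of all tested genes. NH4 measured 479.6, 521.4 and 617.1 in the wild type and 810.9, 730.4 and 865.5 in dst, a log2 difference of 0.58 ± 0.15 (SE) for which limma gave an adjusted p of 0.162. NH3 measured -0.69 ± 0.18, with an adjusted p of 0.167, while 2 dimmer tested probe sets of the same gene gave -0.08 ± 0.20 and -0.13 ± 0.35. NH5 measured 0.59 ± 0.20 in its brightest probe set, with overlap between the lines, while a dimmer tested probe set gave -0.31 ± 0.31. NH1 measured -0.12 ± 0.18. Partners of FD-type bZIP factors in the flowering complex, 14-3-3 proteins of the GF14 family and florigen, gave no gene that passed among 7 tested. GF14E measured 0.38 ± 0.13 with an adjusted p of 0.291, and the florigen gene Hd3a lay under the filter, with signals of 14.5 to 173.4. None of the 3 phytochrome genes passed, and PHYA, at -0.25 ± 0.12 in its brightest probe set and 0.01 ± 0.16 in another, had an adjusted p of 0.541 in limma for the former.

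**Figure D4:**
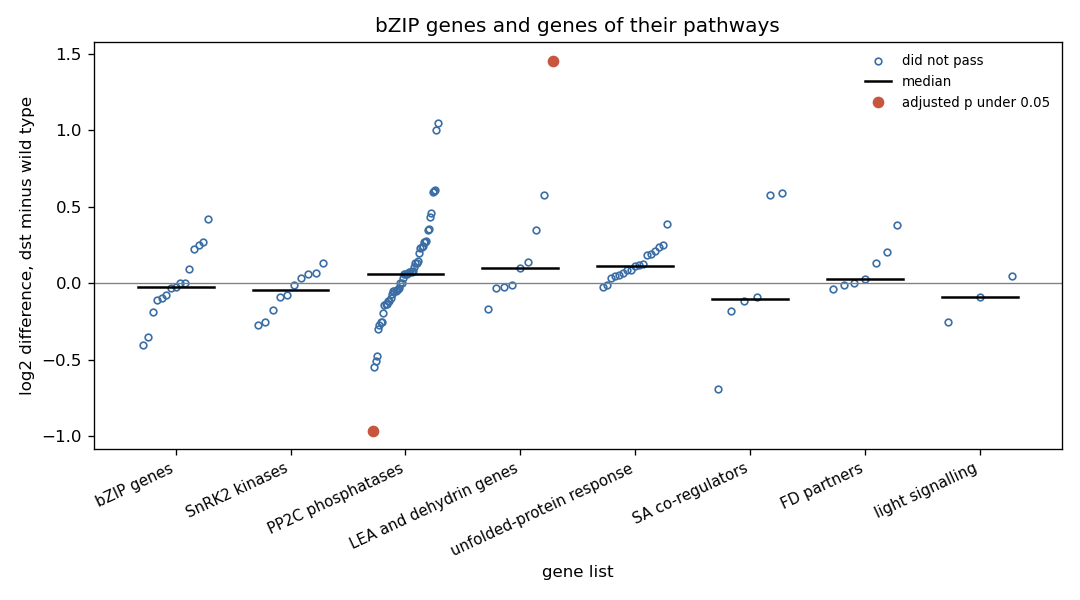
Log2 difference, dst minus wild type, of each tested gene in the bZIP set and in 7 lists of gene names. The lists hold families with members that act with bZIP factors. Bars are medians and filled red points passed an adjusted p of 0.05 in limma. The filled points are OsPP2C01 below 0 and rab25 above 0, and the bZIP set has none.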

How the data were processed

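The deposited files hold 1 signal intensity for each probe set on each array, on a linear scale, made by the authors from biotin-labelled RNA per the labels' protocols. Which software made these signals is not given in the sources used here. After trimming 2% of values at either end, every array had a mean of 500.1, so the arrays appear scaled to a common level. Values under 1 were set to 1, log2 was taken, and 187 control probe sets were left out. A filter at the 40th percentile of mean log2, equal to a signal of 70.5, kept 34316 probe sets. Of all rice probe sets, 22436 have a single gene in the annotation, and 16013 genes had their brightest such probe set past the filter. Lines were compared in R 4.3.3 by limma 3.58.1 (lmFit, then eBayes with a mean-variance trend) without covariates, and p-values were adjusted by Benjamini-Hochberg over all 34316 probe sets, at a threshold of 0.05. The procedure was run on simulated data with noise independent between arrays. That run cannot show how effects shared by arrays, such as those of the third arrays, bear on the results. Single-gene adjusted p-values come from this model. Signals of different probe sets were not ranked as transcript levels.

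Genes were named from the platform annotation and a RefSeq gene table (ASM3414082v1), used for names only. All 19 bZIP genes with a probe set are described. The naming rule takes 14 of them (8 highest means, 8 smallest p, known roles), and the other 5 are given for completeness. From each list it takes genes that passed, or else the smallest p, and the other list genes given were chosen after their values were seen. Members and lists were chosen with earlier results of these data known. BIP names with several digits and GT names were left out of the lists, since they also name unrelated genes. Alternatives covered normalization, filter, offset, variance model, array weights, replicate number, each array left out, threshold and probe sets. Plots used matplotlib 3.10.9. Sequences were not used here.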

Additional observations from a re-analysis of the deposited data

How the results depend on the processing

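In 17 alternatives the count of bZIP genes past the threshold was 0 each time, with 0 to 2 at an unadjusted p under 0.05 where these were counted. The stricter threshold of 0.01 could give no other count. Taking all probe sets of the members tested the same 15 probe sets as the main fit, so it added nothing. Over 193 pairs of a named tested gene and an alternative fit the lowest adjusted p was 0.255. The median log2 difference of the bZIP genes was -0.0257, and leaving out 1 array at a time gave -0.0582 to 0.0736, the highest value without wild-type replicate 3. Of 13 genes, 8 kept their sign throughout. OsbZIP39 turned to -0.0325 with median centring, -0.0889 with array weights and -0.0191 with replicates 1 and 2 only, and OsbZIP23 to -0.0309 with median centring and -0.0118 with array weights. Leaving out 1 array, OsbZIP39 ranged from -0.145 to 0.126, OsbZIP23 from -0.0582 to 0.0736, OsbZIP28 from -0.180 to 0.0783, OsbZIP60 from -0.229 to 0.00132 and OsbZIP63 from -0.120 to 0.0870. None of these genes had passed, and the cause was not tested. The count over all rice probe sets was 317, against 80 in a fit without the variance trend, 532 under array weights, 203 with replicates 1 and 2 only and 115 to 281 with 1 array left out, where fewer samples enter. With the replicate block it was 463 and no bZIP gene passed. The deviations of each wild-type array were also correlated with those of each dst array, over probe sets. First and second arrays gave 0.05 with the same number and 0.06 with the other, so these numbers do not pair the samples. The third arrays gave 0.20 with each other and -0.10 to -0.11 with a first or second array. Part of their deviations was thus shared between the lines. Under the 60th percentile filter OsbZIP41 and OsbZIP70 were not tested. Without detection calls, signal over background limits what can be said of the 4 dim genes.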

Other observations

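RF2a and RF2b, known as rice bZIP proteins that bind the promoter of a plant virus, carry no bZIP number in the gene table and were looked up after the annotation had been opened. RF2a measured 485.0, 490.6 and 490.8 in the wild type and 518.1, 488.0 and 464.2 in dst, with overlap between the lines. RF2b measured 793.4, 677.3 and 726.4 in the wild type and 845.3, 857.5 and 870.6 in dst, with each dst array above each wild-type array. Its log2 difference was 0.23 ± 0.13 (SE), and it did not pass, as limma gave an adjusted p of 0.587.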
